A study of Mus musculus with 8 samples.

Results

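The mast cell proteases described here are the rows of the deposited gene table whose symbol begins with Mcpt, Tpsb or Tpsab, together with Cpa3 where listed. There were 2 such rows among 1428 genes, the chymase gene Mcpt1 and the tryptase gene Tpsb2. Colon tumours had been induced in mice with azoxymethane, a carcinogen, and dextran sodium sulfate, which damages the lining of the colon. RNA of 4 tumour libraries from mice labelled miR-29ab1Vilin-KO (KO) was compared with RNA of 4 tumour libraries from mice labelled Wildtype (WT), and both groups carry the strain label C57BL/6N. The study text places the disruption of miR-29ab1 in the intestinal epithelium, and mast cells are not epithelial cells. The KO label carries the name Vilin, a spelling close to villin, whose promoter is commonly used to direct Cre recombinase to gut epithelium, but the sources used here do not spell out the driver. They also give neither the age of the mice nor the induction scheme. Nor do they say whether each library came from its own mouse, and p-values therefore measure only how these libraries vary, a variation that may be technical.

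Mast cells are tissue-resident immune cells that store serine proteases in cytoplasmic granules and release them on activation. In the mouse, mucosal mast cells of the gut epithelium and lamina propria are known for the chymases Mcpt1 and Mcpt2, whereas connective tissue mast cells of the submucosa and serosa are known for the tryptase Tpsb2, the chymases Cma1 and Mcpt4, and the carboxypeptidase Cpa3. The symbol Mcpt1 denotes mouse mast cell protease-1, a chymase whose release is a classical sign of mucosal mast cell activation in intestinal worm infection, and Tpsb2 denotes tryptase beta-2, also called Mcpt6 in the mouse.

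The mature microRNAs of the disrupted locus and the stretch upstream of Mcpt1 are shown as the sequences that the comparison concerns. They were taken from RefSeq with the GRCm38.p6 build, and the miRNAs are printed 5′ to 3′ with the seed, bases 2 to 8, in capitals.
mmu-miR-29a-3p: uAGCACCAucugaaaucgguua
mmu-miR-29b-3p: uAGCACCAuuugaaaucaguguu
Both share one seed. The genes Mir29a and Mir29b-1 lie on the minus strand of chromosome 6, with mature sequences at chr6:31062673-31062694 and chr6:31063025-31063047. The same mature miR-29b-3p sequence is also encoded by Mir29b-2 on chromosome 1, outside the locus named in the labels. No gene whose symbol begins with Mir29 was among the 1428 listed genes, so the deletion was not checked here.

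The match to that seed, TGGTGCT, occurred 0 times in the annotated protein-coding transcripts of Mcpt1 (1 transcript) and Tpsb2 (4 transcripts) in GENCODE M21. Among 3021 genes whose longest protein-coding transcript had 800 to 1400 bases, 12.8% held the match. These transcripts, of 1014 bases for Mcpt1 and 932 to 1289 bases for Tpsb2, shared 0 exact stretches of 50 bases with any transcript of another gene in that annotation, although the proteases belong to gene clusters of related sequence.

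The 250 bases upstream of the Mcpt1 start, at chr14:56017714-56017963 on the plus strand of GRCm38.p6, are printed for the member matched in the RefSeq promoter table. Mcpt1 matched an entry there and Tpsb2 did not. Capitals mark a match to TGATAA, one of 2 forms of the GATA factor motif searched (AGATAA and TGATAA), and a match to the TATA box motif TATAAA.
Mcpt1 promoter: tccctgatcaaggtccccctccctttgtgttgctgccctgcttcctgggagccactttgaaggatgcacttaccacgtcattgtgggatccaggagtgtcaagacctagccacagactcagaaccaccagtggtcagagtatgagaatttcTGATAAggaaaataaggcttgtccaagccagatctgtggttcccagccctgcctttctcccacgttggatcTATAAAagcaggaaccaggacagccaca
Both strands were searched. The GATA motif began at -99 from the start and was present in 16.6% of 32851 promoter windows of the same length, and TATAAA began at -28 and was present in 12.4%. One match to the SMAD motif CAGAC lay at -138, a motif present in 42.2% of windows, and the E-box CANNTG, present in 66.2%, had 0 matches in this window. A match is a description of letters and not a binding site.

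The unit is the normalized count, a gene's read count divided by a size factor of the library. The authors' deposited table holds only genes with an unadjusted p below 0.05, so both proteases were listed because of a KO to WT difference. Refits given below reuse the same libraries, so their p-values are no independent test of that difference. Of 19985 genes that the authors' adjustment implies, 7.06% were listed with an adjusted p, 0.04% had an adjusted p below 0.05 in either direction and 0.01% did so while lower in KO, a call that 0 of the 2 proteases reached. Of the listed genes, 41.9% were lower in KO. Among the 8 libraries, KO replicate 4 stood apart over the listed genes, with the lowest KO value in 59.3% of the 599 genes lower in KO and the highest in 75.0% of the 829 genes higher in KO. The lowest WT value belonged to WT replicate 3 in 42.6% of those 599 genes.

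Mcpt1 transcripts were lower in KO tumours in the mean, with a wide range in both groups. Mcpt1 (MGP_C57BL6NJ_G0021780, a protein-coding gene on the plus strand of chromosome 14 from 52598797 to 52601224 in the coordinates of the deposited table) had 401.1, 176.8, 123.7 and 11.7 normalized counts in KO replicates 1 to 4, against 481.5, 2032, 64.7 and 1700 normalized counts in WT replicates 1 to 4. WT replicates 2 and 4 were high and WT replicate 1 stood just above the highest KO library, but WT replicate 3 lay below 3 of the 4 KO libraries, so the groups overlapped. The mean was 178 ± 164 normalized counts in KO and 1069 ± 945 in WT (SD, n = 4 each). By the authors' deposited table the log2 fold change of KO over WT was -2.58, with a DESeq2 p of 0.0247 and an adjusted p of 0.657. A separate DESeq2 refit of the recovered reads, on the listed genes only, gave -2.58 with a standard error of 0.98. The unadjusted DESeq2 p of that refit was 0.00867, so its error is not that of the deposited fit.

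Tpsb2 transcripts showed the same order of the groups with fewer counts. Tpsb2 (MGP_C57BL6NJ_G0023759, a protein-coding gene on the plus strand of chromosome 17 from 25491360 to 25492904 in the coordinates of the deposited table) had 48.2, 46.1, 29.4 and 0 normalized counts in KO replicates 1 to 4, against 130.3, 159.2, 21.2 and 182.1 normalized counts in WT replicates 1 to 4. WT replicates 1, 2 and 4 stood well above every KO library, and WT replicate 3 was below KO replicates 1, 2 and 3. A count of 0 in KO replicate 4 allows up to 2.94 normalized counts, the value of 3 reads, by counting error alone. The mean was 30.9 ± 22.3 normalized counts in KO and 123.2 ± 71.2 in WT (SD, n = 4 each). In the authors' deposited table the KO over WT change was -2.00 on the log2 scale, with a DESeq2 p of 0.0251 and an adjusted p of 0.660. The DESeq2 refit gave -2.00 with a standard error of 0.98 and an unadjusted p of 0.0418.

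**Figure D1:**
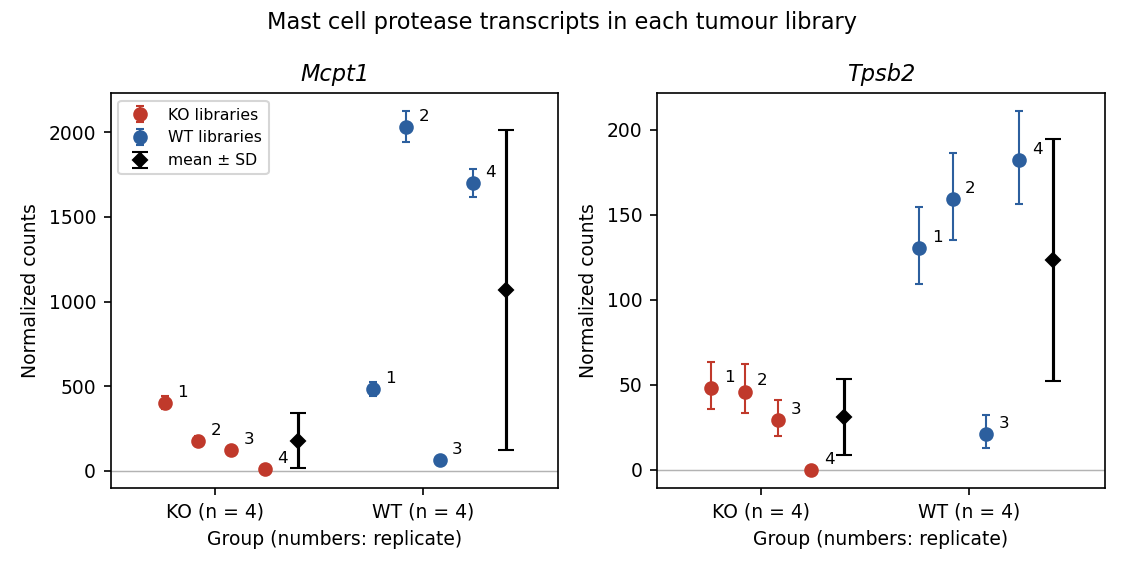
Normalized counts of Mcpt1 and Tpsb2 (y axes, linear) in each KO and WT library, with the replicate number beside each point, exact 95% Poisson intervals as thin bars (none drawn for the library at 0) and the group mean ± SD (n = 4) as diamonds. In both genes WT replicate 3, at 64.7 for Mcpt1 and 21.2 for Tpsb2, lies among the KO libraries while the other WT libraries lie above all KO libraries.

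The order of the libraries was partly shared by the 2 genes. In both, KO replicate 4 was the lowest library, WT replicate 3 the next lowest and KO replicates 3, 2 and 1 followed in that sequence, below WT replicate 1. The order of the highest libraries differed, with WT replicate 2 first for Mcpt1 and WT replicate 4 first for Tpsb2. For Tpsb2, neighbours in this order had overlapping exact 95% Poisson intervals, such as 13.1 to 32.5 for WT replicate 3 and 20.2 to 41.2 for KO replicate 3. The exceptions were KO replicate 4 and KO replicate 1. The interval of KO replicate 4, at 0, ended at 3.61, below that of WT replicate 3. The interval of KO replicate 1 ended at 63.6, below that of WT replicate 1, which began at 109.2. For Mcpt1 the interval of KO replicate 1 ended at 441.5 and that of WT replicate 1 began at 440.0, and the other neighbours did not overlap. Such intervals cover counting error only.

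After each group's mean was subtracted on the scale of log2 (normalized count + 1), Mcpt1 and Tpsb2 had a Pearson correlation of 0.91 and a Spearman correlation of 0.81 over the 8 libraries, where both values of a point come from one RNA sample and one size factor. This likeness is a description of 8 points. Without KO replicate 4 the Pearson correlation was 0.94, and without KO replicate 4 and WT replicate 3, the 2 libraries farthest from the Tpsb2 median, it was 0.77. Of 1084 other listed genes with a mean of at least 20 normalized counts, 10 were closer to Mcpt1 than Tpsb2 was, and 16 were closer to Tpsb2 than Mcpt1 was. A pair of mast cell proteases was thus near the top of each ranking but not alone there.

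**Figure D2:**
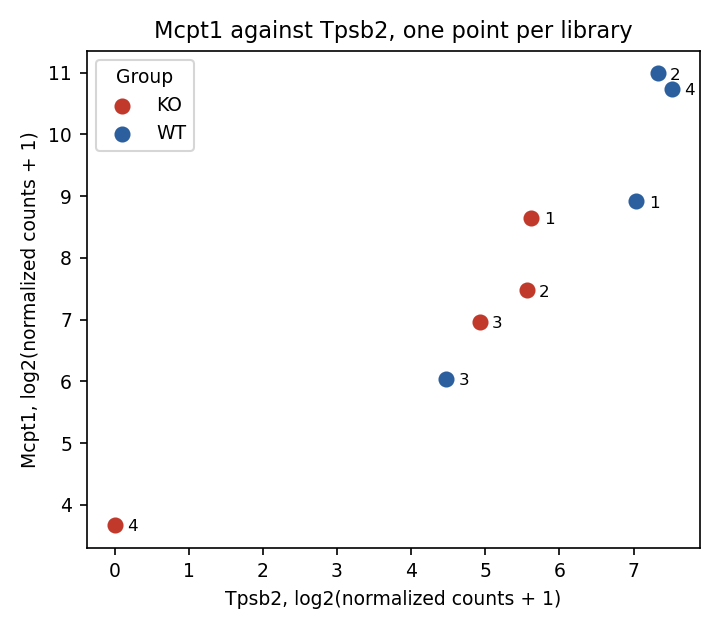
Mcpt1 (y axis) against Tpsb2 (x axis) as log2 (normalized counts + 1), with one point per library, coloured by group and numbered by replicate. KO replicate 4 lies at the lower left with 11.7 Mcpt1 and 0 Tpsb2 normalized counts, and WT replicates 2 and 4 lie at the upper right.

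Divided by the gene lengths in the table, of 1028 bases for Mcpt1 and 1081 bases for Tpsb2, the chymase was the more abundant transcript in every library. Mcpt1 averaged 173 ± 159 normalized counts per kilobase in KO and 1040 ± 919 in WT, and Tpsb2 averaged 28.6 ± 20.6 per kilobase in KO and 114.0 ± 65.9 in WT (SD, n = 4 each). The ratio of the Mcpt1 level to the Tpsb2 level per kilobase was 8.75, 4.04 and 4.43 in KO replicates 1 to 3, against 3.88, 13.4, 3.20 and 9.81 in WT replicates 1 to 4. The ratio has no value in KO replicate 4, where Tpsb2 was 0. The ranges of this ratio overlapped between groups, and it was highest in WT replicates 2 and 4, the libraries richest in Mcpt1.

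In tumour tissue, fewer mast cells and less protease RNA per mast cell cannot be told apart in these bulk libraries. The summed level of both transcripts ran from 11.7 to 449.3 normalized counts in KO and from 86.0 to 2191 in WT.

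The spread within WT was large for both genes. The coefficient of variation (SD divided by the mean) of Mcpt1 was 91.8% in KO and 88.4% in WT, and that of Tpsb2 was 72.0% in KO and 57.8% in WT. Counting error alone would give Mcpt1 a coefficient of 7.39% in KO and 3.08% in WT, and Tpsb2 17.8% in KO and 9.04% in WT. The median over 1086 listed genes with a mean of at least 20 normalized counts was 25.4% in KO and 22.6% in WT. From the largest coefficient down, Mcpt1 took rank 91 of these genes in KO and rank 22 in WT, and Tpsb2 took rank 166 in KO and rank 95 in WT. Among the 449 of these genes listed lower, the order of the groups was reversed. Mcpt1 took rank 5 there in KO and rank 10 in WT, and Tpsb2 took rank 19 in KO and rank 42 in WT. All genes ranked here were selected by an unadjusted p below 0.05. The highest library held 34.2 times the Mcpt1 of the lowest in KO and 31.4 times in WT. For Tpsb2 the highest WT library held 8.58 times the lowest.

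The spread within WT without WT replicate 3 differed between the genes and with the scale. Without that library the WT coefficient of variation of Tpsb2 was 16.5%, with a mean of 157.2 ± 25.9 normalized counts (SD, n = 3), whereas that of Mcpt1 was still 58.1%, with a mean of 1404 ± 816. On the scale of log2 (normalized count + 1), where low values weigh more, the WT SD without WT replicate 3 was 0.24 for Tpsb2 and 1.13 for Mcpt1, against 1.42 and 2.28 with all 4 WT libraries. In both genes WT replicate 3 was the only WT library that did not lie above every KO library. Leaving it out therefore separates the groups by construction and is no further result. Among the 599 genes listed lower, WT replicate 3 was the one WT library inside the KO range in 18.7%, so this position was shared by 112 genes. With all 8 libraries, the groups were wholly apart in 49.4% of the genes listed lower and in neither protease.

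**Figure D3:**
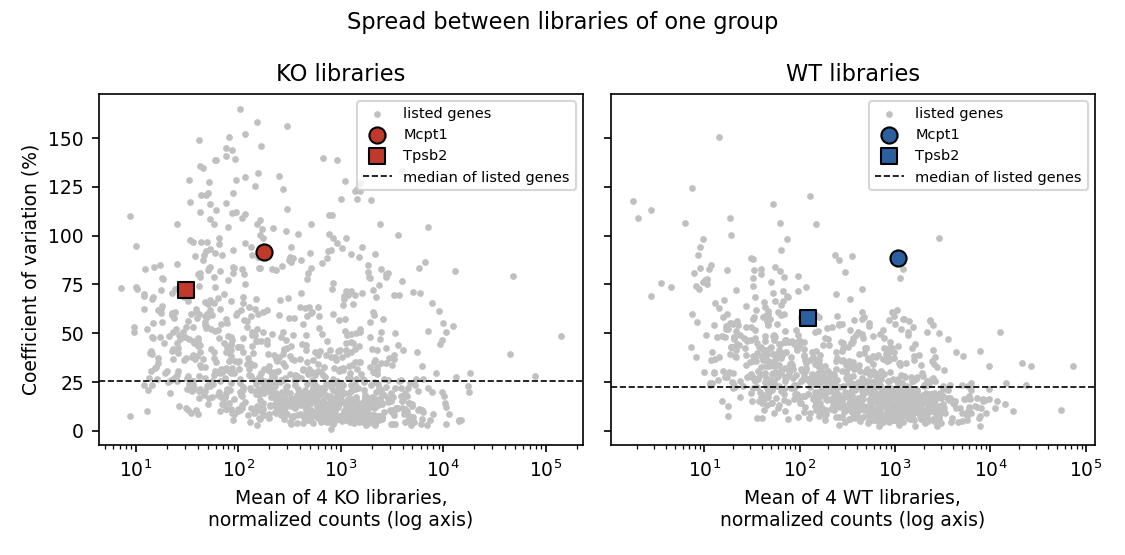
Coefficient of variation between the 4 libraries of a group (y axis, percent) against the group mean in normalized counts (x axis, log scale) for 1086 listed genes, with the median as a dashed line, KO at left and WT at right. Mcpt1 and Tpsb2 lie above the median in both groups, at 88.4% and 57.8% in WT.

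The KO mean stayed below the WT mean in both genes without any 1 of the 8 libraries. Both genes were listed for this difference in the same libraries, so this is a description and no further support. Leaving out KO replicate 4, the library without Tpsb2 counts, gave a KO mean of 233.9 for Mcpt1 and 41.2 for Tpsb2, or 0.22 and 0.33 times the WT mean, compared with 0.17 and 0.25 times with all libraries. Leaving out KO replicate 1, which held the most Mcpt1 of the KO group, lowered the Mcpt1 KO mean to 104.1, or 0.097 times the WT mean. Leaving out WT replicate 2 gave a WT mean of 748.6 for Mcpt1, and the KO mean was then 0.24 times that. Refitted with edgeR's quasi-likelihood test, the recovered reads gave Mcpt1 an unadjusted p of 0.0414 and Tpsb2 an unadjusted p of 0.0722, where 32.2% of the listed genes were lower with an unadjusted p below 0.05. TMM scaling over the listed genes moved the median log2 fold change by -0.16, and Mcpt1 and Tpsb2 then stood at -2.70 and -2.12. Neither protease had an adjusted p below 0.05 in any refit.

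**Figure D4:**
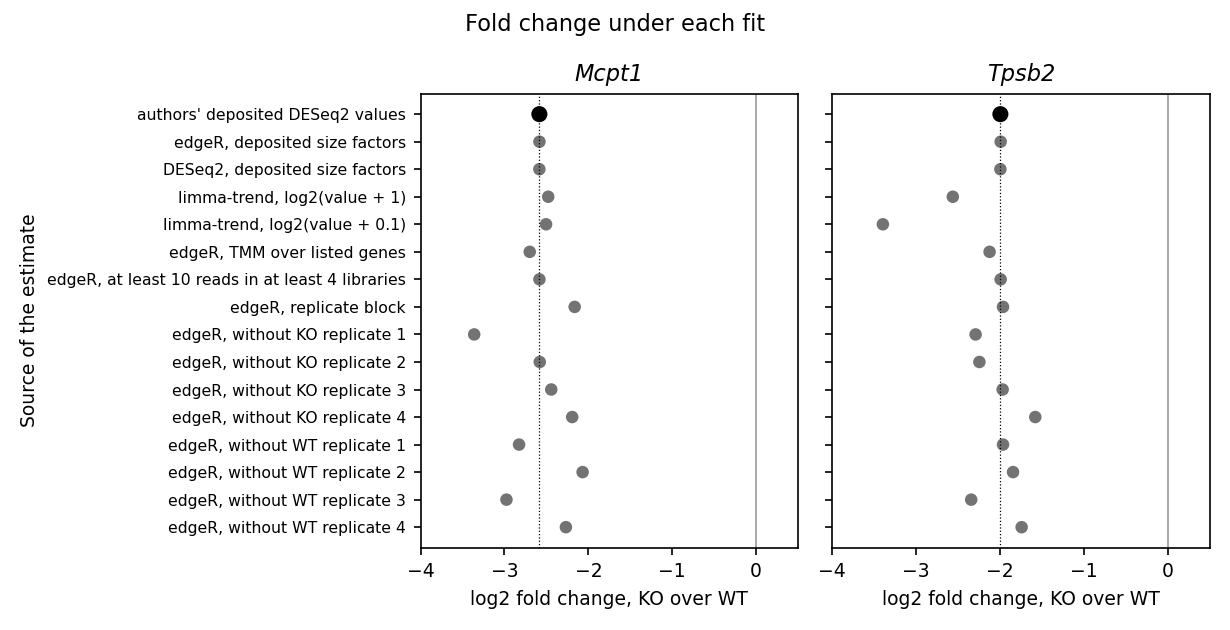
Log2 fold change of KO over WT (x axis) for Mcpt1 and Tpsb2 from the authors' deposited table (black point and dotted line) and from each refit or left-out library (grey points). All estimates lie below 0, from -3.36 to -2.07 for Mcpt1 and from -3.40 to -1.58 for Tpsb2. They all come from the libraries by which both genes were listed.

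Other mast cell genes are set here beside the 7.06% of all genes that were listed. Of 15 mast cell protease genes, the 2 described here were listed, both lower and with a median log2 fold change of -2.29, against -0.88 over all genes listed lower. All of these genes passed an unadjusted p below 0.05. Genes with a wide spread, such as these 2, pass it mainly with a large fold change, so the larger value follows in part from the selection. The other 13 genes of that list, among them Mcpt2, Mcpt4, Cma1, Tpsab1 and Cpa3, were not among the listed genes and were not analysed here. Mcpt2, Mcpt9, Mcpt4 and Mcpt8 lie next to Mcpt1 in the chymase cluster of RefSeq, and Tpsab1 and Tpsg1 flank Tpsb2. Of 16 genes of mast cell identity and receptors, including Kit, Fcer1a, Ms4a2 and Hdc, Adora3 was the 1 listed, a share of 6.25% that is near the share over all genes. Of 11 genes of mast cell mediator synthesis and 14 of growth and activating factors such as Kitl, Il9 and Il33, 0 were listed.

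Adora3, an adenosine receptor that mast cells carry, had few counts. There were 0.964, 3.21, 8.01 and 0.978 normalized counts in KO replicates 1 to 4, against 6.81, 14.4, 16.2 and 21.2 in WT replicates 1 to 4. KO replicate 3 lay above WT replicate 1 and the other KO libraries lay below every WT library. The log2 fold change was -2.14 and the DESeq2 adjusted p 0.572 by the authors' deposited table. WT replicate 3, low in both proteases, was the second highest library for Adora3. Its 16.2 normalized counts were close to the 14.4 of WT replicate 2, and no counting interval was computed for Adora3.

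Of 13 eosinophil and basophil genes, 3 were listed (23.1%, beside 7.06% of all genes). All 3 were lower in KO, as were 41.9% of the listed genes, with 0 past an adjusted p of 0.05. They were Ccl11 and Ccl24, the eotaxins that attract eosinophils, and Alox15, a lipoxygenase found in mouse eosinophils and macrophages. The other 10 genes of that list, among them Epx, Prg2, Prg3 and Il5ra, were not listed and were not analysed here. Ccl11 had 9.64, 33.2, 26.7 and 2.94 normalized counts in KO replicates 1 to 4, against 32.1, 41.1, 53.6 and 71.8 in WT replicates 1 to 4. Ccl24 had 16.4, 4.29, 16.0 and 2.94 in KO replicates 1 to 4, against 15.6, 41.1, 31.3 and 33.4 in WT replicates 1 to 4. The groups touched in both eotaxins, through KO replicate 2 for Ccl11 and KO replicates 1 and 3 for Ccl24, each of which exceeded WT replicate 1. By the authors' deposited table the log2 fold changes were -1.46 for Ccl11 and -1.60 for Ccl24.

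Alox15 had 350.9, 722.3, 2044 and 240.7 normalized counts in KO replicates 1 to 4, against 2606, 2040, 776.6 and 3977 in WT replicates 1 to 4. As for the proteases, WT replicate 3 was the lowest WT library and KO replicate 4 the lowest KO library, while KO replicate 3 reached the level of WT replicate 2. The KO mean was 438.0 when KO replicate 3 was left out, against 839 ± 829 with all 4 libraries and 2350 ± 1327 in WT (SD, n = 4 each). The authors' deposited table lists it at -1.49 on the log2 scale, with a DESeq2 adjusted p of 0.656.

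**Figure D5:**
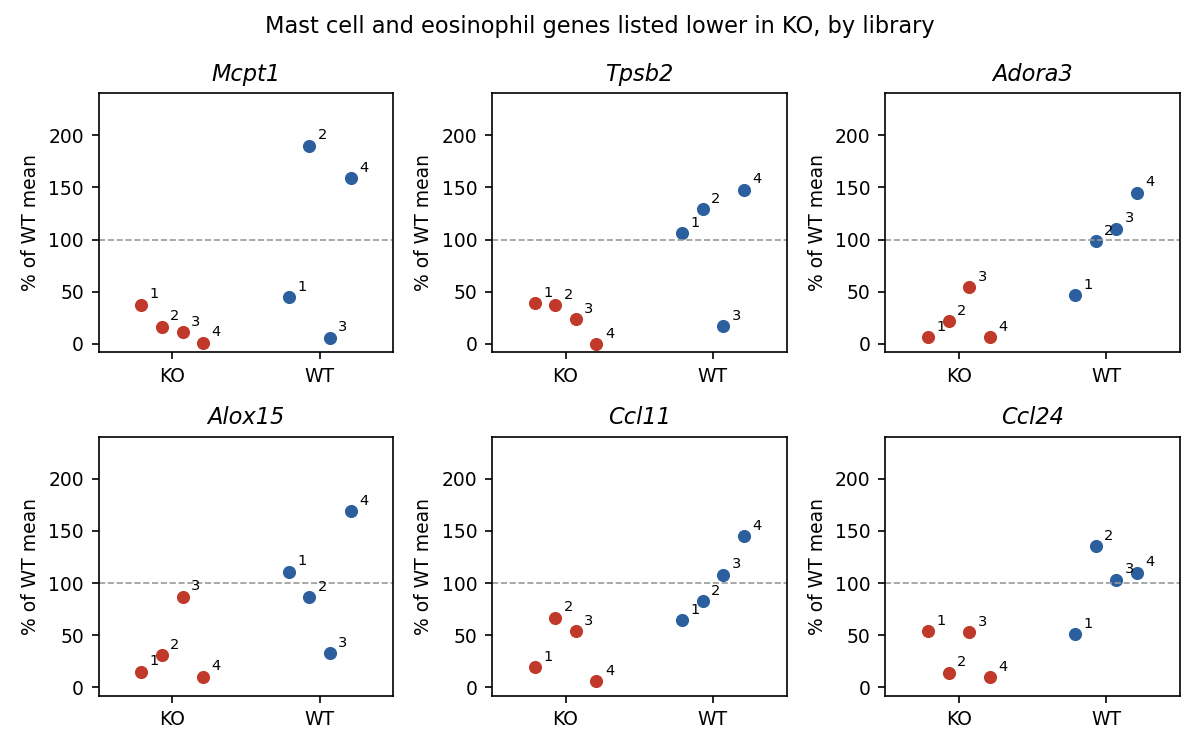
Level in each library as a percentage of the WT mean (y axis) for Mcpt1, Tpsb2 and the listed members of the mast cell identity and the eosinophil and basophil lists, with KO at left and WT at right and points numbered by replicate. WT replicate 3 is the lowest WT library for Mcpt1, Tpsb2 and Alox15 but not for Adora3, Ccl11 or Ccl24.

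Among 11 genes of mast cell progenitor homing, Itga4 was the 1 listed (9.09%), and it was higher in KO. Itga4, the integrin alpha-4 chain that pairs with the beta-7 chain on gut-homing progenitors and is also carried by lymphocytes, had 81.0, 122.2, 99.7 and 120.4 normalized counts in KO replicates 1 to 4, against 73.9, 60.6, 46.5 and 31.4 in WT replicates 1 to 4. Every KO library lay above every WT library, as in either direction in 44.7% of all listed genes. The authors' deposited table lists it at 0.99 on the log2 scale, with a DESeq2 adjusted p of 0.413.

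Genes of other cell types were listed as well and are likewise set beside the 7.06% of all genes that were listed. Of the listed genes, 41.9% were lower in KO and the others higher. Of 15 neutrophil genes, Mpo alone was listed (6.67%, near the share over all genes). It had 0 normalized counts in all KO libraries, against 2.92, 0, 0 and 23.3 in WT replicates 1 to 4. Of 15 B and plasma cell genes, 12 were listed (80.0%), all higher in KO. Their summed level was 261.3 to 3540 normalized counts in KO and 138.7 to 323.7 in WT. KO replicate 4, lowest in both proteases, was the highest library of that sum. Of 16 T and NK cell genes, 3 were listed (18.75%), all higher, with sums of 127.3 to 159.5 in KO and 59.3 to 78.1 in WT. Of 14 fibroblast and smooth muscle genes, 2 were listed (14.3%), both higher, with sums of 130.2 to 200.6 in KO and 65.8 to 129.4 in WT. With 3 and 2 genes, a shared direction says little about these lists. The part of these cell types in the protease levels was not tested. Of 14 macrophage and monocyte, 14 epithelial, 12 tight junction, and 13 protease-activated receptor and serpin genes, 0 were listed.

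The listed genes whose library pattern was most like each protease were taken by the same group-centred Pearson correlation over 8 libraries. For Mcpt1 they were Samsn1, an adaptor protein of blood cells, at 0.92, the long non-coding RNA Gm28151 at 0.92, Pnrc1, a nuclear receptor coactivator, at 0.92, the zinc finger gene Zfp821 at 0.92 and Myl4, a myosin light chain, at 0.92. For Tpsb2 they were Armc10, an armadillo repeat protein, at 0.95, a gene listed without a symbol at 0.95, Gtf2h5, a subunit of transcription factor IIH, at 0.95, Atp6v1b2, a subunit of the vacuolar proton pump, at 0.95 and Cep44, a centrosomal protein, at 0.94. The sets had 0 genes in common. By Spearman correlation the likeness ran from 0.81 to 0.90 in the Mcpt1 set and from 0.52 to 0.90 in the Tpsb2 set, where Cep44 was at 0.52 and Atp6v1b2 at 0.57. Without KO replicate 4 the Pearson correlation ran from 0.85 to 0.91 in the Mcpt1 set and from 0.76 to 0.92 in the Tpsb2 set. Samsn1 had 41.5, 25.7, 32.9 and 16.6 normalized counts in KO replicates 1 to 4, against 60.3, 77.0, 28.3 and 56.7 in WT replicates 1 to 4. Its WT replicate 3 lay among the KO libraries, which follows in part from picking genes by their likeness to Mcpt1. The difference between groups in these genes was smaller than in the proteases, with a KO mean from 0.393 times the WT mean for the gene without a symbol, through 0.525 times for Samsn1, to 0.807 times for Zfp821, whereas it was 0.167 times for Mcpt1 and 0.251 times for Tpsb2. All were selected by the same p, which genes with a wide spread pass mainly with a large difference.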

How the data were processed

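RNA was extracted with TRIzol and libraries were made with a NEBNext Ultra Directional kit, per the labels' protocols. HISAT2, DESeq2 and the build GRCh38 are named in the submitters' processing notes. The build named is human, but the table's identifiers are those of the mouse C57BL/6NJ strain annotation, and its coordinates were compared with no other build. The counting tool and its strand setting are not given in the sources used here.

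Per the file headers, the authors deposited 1 table with a normalized signal per library (counts divided by size factors), group means, a log2 fold change of KO over WT, and p-values and adjusted p-values. Gene lengths are as the table gives them. Each signal was a whole number of reads, within 0.001, after multiplication by 1 size factor per library (100% of values, factors 0.933 to 1.12). Recovered reads of the listed genes summed to between 1202677 and 2180787 per library, which is not library depth.

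The deposited fold changes are the main values because the table is selected. Of 230 steps in the deposited adjusted p-values, 218 implied 19985 genes within 1 gene. Refits used edgeR 4.0.16, DESeq2 1.42.0 and limma 3.58.1 in R 4.3.3, on the 1428 listed genes, with Benjamini-Hochberg adjustment over 19985 genes. Their spread comes from selected genes. In simulated data of 1428 genes, edgeR recovered 21.7% of 92 genes changed 2-fold and 68.5% of 108 changed 4-fold, calling 3 of 1228 unchanged genes. Those simulated calls were adjusted over 1428 genes.

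Libraries of a group differed beyond counting noise (chi-square per degree of freedom at least 19.8), so none were merged. Members and gene lists were chosen with earlier results of these data known. Named genes are the members, the listed members of the mast cell, eosinophil, neutrophil, tight junction and protease receptor lists, and the 5 genes closest to each member. Other symbols without values name list contents or neighbours. Listed genes of the B, T and fibroblast lists are given as sums.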

Additional observations from a re-analysis of the deposited data

How the results depend on the processing

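Mcpt1 and Tpsb2 were lower in KO, with no adjusted p below 0.05, under all 15 alternatives, and the log2 fold change ran from -3.36 to -2.07 for Mcpt1 and from -3.40 to -1.58 for Tpsb2. Every alternative reuses the libraries by which both genes were listed, so the shared direction is no independent support. The low end for Tpsb2 came from limma with a pseudocount of 0.1, against -2.56 with a pseudocount of 1, where the 0 in KO replicate 4 enters on the log scale. The unadjusted p ran from 0.00867 to 0.211 for Mcpt1 and from 0.0238 to 0.183 for Tpsb2. The replicate block gave -2.16 (p = 0.211) for Mcpt1 and -1.96 (p = 0.183) for Tpsb2 by edgeR, and the same-numbered libraries share only a number, with correlations of their deviations from -0.24 to 0.054. The count of genes with an adjusted p below 0.05 was 8 in the deposited table, 37 in the DESeq2 refit and 0 in every edgeR and limma refit, the block and all left-out libraries (0 to 0) included. At an unadjusted p below 0.05 with the deposited sign, edgeR kept 1103 genes, 551 with the block, 886 with TMM and 642 to 911 with 1 library left out, and limma kept 1027 and 984. With TMM over the listed genes 552 of the 886 were lower, against 460 of the 1103 with the deposited size factors. The share of listed genes with a larger WT spread was 1.93% for Mcpt1 and 8.66% for Tpsb2 by the coefficient of variation, and 0.18% and 2.21% by the SD of log2 values. It ran from 0.37% to 9.02% for Mcpt1 and from 3.04% to 61.97% for Tpsb2 with 1 WT library left out, the highest values being those without WT replicate 3. The SD of log2 values without WT replicate 3, and the likeness without KO replicate 4, were computed after the data had been seen. Library depth is unknown, and the Poisson intervals, that for a count of 0 included, cover counting error only.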
